A study of Homo sapiens with 6 samples.

Results

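The protein-coding genes of chromosome 19 whose symbols are ZNF followed by a number were examined in A375, a human melanoma cell line, with and without overexpression of HMGB2, a chromatin protein that bends DNA. Matching the gene IDs of the count tables to GENCODE 44 gave 249 such genes among 58302 IDs, and 266 further protein-coding ZNF genes lay on other chromosomes. RNA selected by its poly(A) tail was sequenced from 3 libraries of a line stably transduced with the empty vector and 3 libraries of a line stably overexpressing HMGB2, both on the A375 background and both made with lentivirus. The study's reporting form calls the 3 replicates technical, so every p-value here covers the spread between libraries of a line and not between independent transductions.

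Zinc finger genes of this family encode proteins that bind DNA through a row of fingers, each a short loop held by a zinc ion between cysteines and histidines. Many carry a KRAB domain at their start, which recruits the corepressor TRIM28 and, through it, the histone methyltransferase SETDB1 and heterochromatin protein. They are best known for silencing transposable elements, and in the human genome they are gathered in tandem clusters on chromosome 19 that arose by repeated duplication.

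Repeated sequence is seen in the members themselves, and its origin was not tested. A zinc finger pattern was found in the translated canonical coding sequence of 247 of the 249 genes, with a median of 12 fingers and at most 39, in ZNF729. Neighbouring fingers are joined by a linker of threonine, glycine, glutamate, lysine or arginine, and proline, which here was required to lie between a histidine and a tyrosine or phenylalanine. Such a linker was present in 234 members (94.0%), against 188 of 266 ZNF genes on other chromosomes (70.7%). The members held 1608 copies, written in 451 distinct sequences of 21 bases. The 5 sequences found in the most members are shown to make this repetition visible, with the 15 linker bases in capitals and the flanking histidine and tyrosine codons in lower case, read 5′ to 3′ on the coding strand of GENCODE transcripts.
Linker form 1: catACTGGAGAGAAACCTtac
Linker form 2: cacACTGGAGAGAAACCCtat
Linker form 3: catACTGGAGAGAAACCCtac
Linker form 4: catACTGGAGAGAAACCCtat
Linker form 5: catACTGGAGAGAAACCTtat
Form 1 occurred in 42 members and 11 other ZNF genes, and form 2 in 40 members and 17 other ZNF genes. Form 3 occurred in 37 members and 22 other ZNF genes, but was the most repeated of the 5 in members, with 160 copies. Forms 4 and 5 tied, each with 32 copies in 26 members, and occurred in 21 and 13 other ZNF genes. These are coding bases of many genes at once, so none has a position of its own.

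Sequence shared between genes bears on the counts, because only reads that map to a single place were counted. It was measured on words longer than a linker. For 25 members, 10% or more of the 50-base words of their transcripts also occur in a gene at another locus. ZNF98 shared 58.0% of its words, most often with ZNF492, and ZNF417 shared 36.3%, most often with ZNF587, its near copy. Counts of these genes are therefore uncertain. Opposite-strand overlap removed reads too, since the libraries carry no strand and a read in 2 genes is set aside. In the count column used here, 42 members kept under 90% of the reads that the strand-specific columns assign to them, and ZNF575 and ZNF135 kept 2.57% and 5.56%. Those columns together count a read in such an overlap for both genes, so these are not shares of a gene's own reads.

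The libraries held between 45925053 and 56755212 reads assigned to genes. HMGB2 itself had normalized counts of 7250, 7729 and 7562 with the empty vector and 15095, 16848 and 14609 with overexpression, or 1.05 ± 0.10 (SE) on the log2 scale (adjusted p = 4.4e-22 in DESeq2). A normalized count is a count divided by the library's DESeq2 size factor. Of the melanocytic markers, MITF lay between 1381 and 1719 and S100B between 3346 and 3841. TYRP1 lay between 7.51 and 21.3, while MLANA did not exceed 10.8, DCT did not exceed 5.63 and TYR did not exceed 0.985. SOX10 was listed at 0 in all libraries, where the column used kept 0% of its strand-assigned reads. PMEL lay between 49.6 and 67.0, where that column kept 3.37%. PTPRC, a leukocyte marker, was listed at 0 in all libraries, and no marker of another cell type passed the test. Of the fibroblast markers, COL1A1 had 2087, 1609 and 3120 with the empty vector and 2880, 2937 and 3938 with overexpression. Its log2 fold change was 0.52 (DESeq2, adjusted p = 0.208). DCN had a mean of 147 against 104, without overlap, at -0.51 (DESeq2, adjusted p = 0.184). Of the endothelial markers, PECAM1 lay between 25.7 and 55.4, and CDH5 did not exceed 13.6. Of the epithelial markers, KRT5 had 5.05, 11.5 and 279 with the empty vector and 250, 200 and 289 with overexpression, KRT14 had 522, 443 and 642 against 421, 530 and 694, and EPCAM had 372, 323 and 258 against 315, 212 and 257. The reads mapping to several places reached 10.6% in overexpression replicate 3, against 2.58% in the lowest library, and the part of these differences in the results was not tested.

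Most members were expressed, at low levels. A count was recorded for 248 of the 249, in all 6 libraries for 236 of them, and the mean normalized count was at least 10 for 231. The readthrough gene ZNF816-ZNF321P was listed at 0 throughout, and 18 members in all, including it, lay under the mean of 10. Divided by the length of the canonical transcript, the 231 had a median level of 57.1 normalized counts per kb. The median was 111 for ZNF genes on other chromosomes and 294 for all protein-coding genes that reached the same mean.

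**Figure D1:**
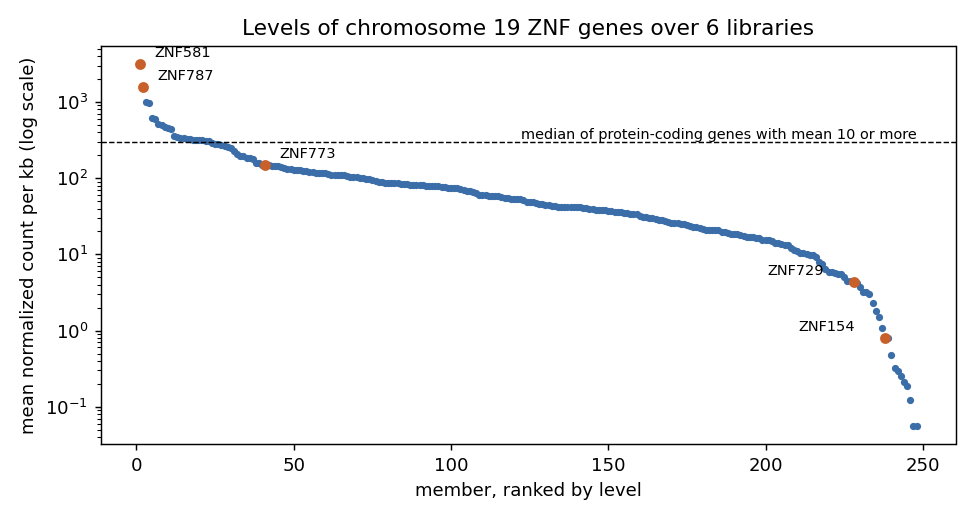
Mean normalized count per kb of canonical transcript over 6 libraries (log axis) for the chromosome 19 ZNF genes with a count, ranked from highest to lowest, with 5 genes marked in orange. ZNF581 stands highest at 3149 per kb, and 23 members lie above the dashed line, the median of 294 per kb over protein-coding genes at a mean of at least 10.

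The 8 members with the highest levels per kb carried between 3 and 13 fingers. ZNF581 led at 3149 normalized counts per kb, followed by ZNF787 at 1563, ZNF146 at 992 and ZNF580 at 963. ZNF581 and ZNF580 overlap on the plus strand, so reads in their shared part were counted for neither. ZNF444 stood at 615, ZNF561 at 594, ZNF627 at 507 and ZNF317 at 493. Of these 8 genes, ZNF561 and ZNF627 matched the KRAB motif searched for. A gene without a match may still carry the domain.

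Against this level, overexpression of HMGB2 moved few members. No member passed as higher and 2 passed as lower, ZNF787 and ZNF773, among 239 that received an adjusted p (DESeq2 Wald test, Benjamini-Hochberg adjusted p under 0.05 over all genes). That is 0.837% of the members, where 4.94% of all 18836 genes tested were called, 2.29% as higher and 2.64% as lower. Of the ZNF genes on other chromosomes, 3 passed as higher and 1 as lower (1.65% of 243), and of the other protein-coding genes of chromosome 19, 15 passed as higher and 32 as lower (5.69% of 826). The median level per kb of the members was below that of both sets, and neither the difference in shares nor the part of expression level in it was tested. In bulk libraries, less RNA per cell and fewer cells expressing a gene cannot be told apart.

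The quasi-likelihood test of edgeR called none of 231 members, with 4 higher and 16 lower at an unadjusted p under 0.05 (8.66%), where it called 2.81% of all genes, 1.28% as higher and 1.52% as lower, and 16.5% lay under that unadjusted p. In DESeq2, 4 members were higher and 12 lower at an unadjusted p under 0.05, which is 6.93% of the 231 members with a mean of 10 or more and compares with 15.5% of all such genes. Values of the 2 groups did not overlap for 9 members that were higher and 29 that were lower (16.5%), against 22.8% of all genes at that mean, 11.4% in each direction. Over the 2 directions together, both counts on the members lay under the background. The 29 of 231 that were lower without overlap did not lie under the 11.4% of all genes in that direction.

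ZNF787 (ENSG00000142409; hg38 chromosome 19, 56087366 to 56121295, minus strand) encodes 7 fingers and no KRAB motif. Its normalized counts were 3654, 3857 and 2897 with the empty vector and 2665, 2742 and 2376 with overexpression. All overexpression libraries lay below all empty vector libraries, and empty vector replicate 3 was the nearest to them. DESeq2 fitted a log2 fold change of -0.42 ± 0.14 (SE), with an adjusted p of 0.0493, and of -0.31 after correction for GC content and transcript length (adjusted p = 0.0403). The transcript is rich in G and C, at 70.4%. Under edgeR the adjusted p was 0.118, and the call held under 8 of 16 alternatives.

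ZNF773 (ENSG00000152439; chromosome 19, 57499915 to 57518404, plus strand) is a KRAB zinc finger gene with 9 fingers. Its normalized counts were 392, 417 and 356 with the empty vector and 276, 277 and 299 with overexpression. The groups did not overlap. DESeq2 fitted a log2 fold change of -0.45 ± 0.14 (SE), with an adjusted p of 0.0394, the edgeR adjusted p was 0.0728, and the call held under 8 of 16 alternatives. The transcript shares 18.0% of its words with other loci, most often with ZNF419. For both genes, leaving out any library other than empty vector replicate 3 ended the call, with log2 fold changes between -0.46 and -0.34 for ZNF787 and between -0.49 and -0.40 for ZNF773.

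The 3 members nearest to the threshold on its other side were also lower. ZNF274, a KRAB zinc finger protein known to recruit SETDB1 to zinc finger gene clusters, had 1034, 1066 and 957 with the empty vector and 810, 845 and 815 with overexpression, or -0.31 ± 0.11 (SE) on the log2 scale (adjusted p = 0.0874 in DESeq2). It passed under 6 of 16 alternatives, among them the GC and length correction (adjusted p = 0.0354). ZNF283 had 434, 486 and 478 against 383, 365 and 299, at -0.41 ± 0.15 (adjusted p = 0.0973 in DESeq2, and 0.00803 with the GC and length correction). ZNF850, an array of 30 fingers, had 54.6, 90.4 and 78.3 against 35.4, 43.3 and 47.3, at -0.83 ± 0.31 (adjusted p = 0.114), and passed under none of the 16. In all 3 genes the groups did not overlap.

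**Figure D2:**
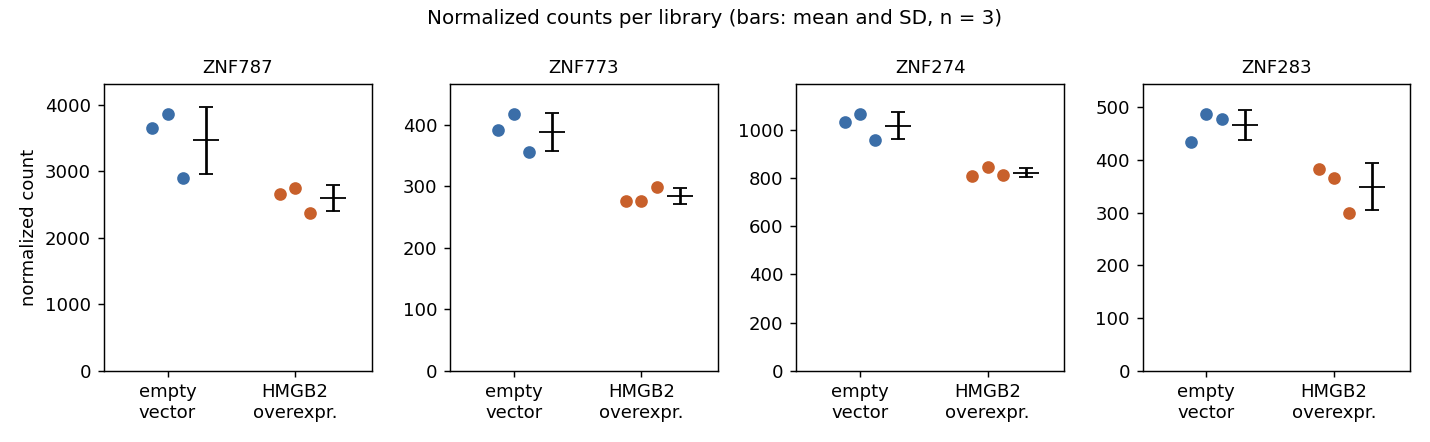
Normalized counts of ZNF787, ZNF773, ZNF274 and ZNF283 in each library (points), with the mean and SD of 3 libraries (black bars), on axes that start at 0. In each gene the 3 overexpression libraries lie below the 3 empty vector libraries.

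Other settings changed the number of calls on the members together with that on all genes. With the GC and length correction 0 members passed as higher and 5 as lower, the 2 above with ZNF274, ZNF283 and ZNF461, where 7.8% of all genes were called, 3.42% as higher and 4.38% as lower. With the sum of the strand-specific columns 0 passed as higher and 3 as lower, ZNF135 being the third, where 4.79% of all genes were called, 2.09% as higher and 2.69% as lower. That sum counts a read in an opposite-strand overlap for both genes, so reads behind the ZNF135 call may come from its neighbour. With replicates 1 and 2 alone 4 passed as higher and 7 as lower, against 17.4% of all genes, 8.01% as higher and 9.44% as lower. With a term for the third replicates 3 passed as higher and 7 as lower, against 17.3% of all genes, 8.71% as higher and 8.61% as lower.

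Empty vector replicate 3 weighed on these numbers. Without it, DESeq2 called 5 members as higher and 7 as lower, where 17.8% of all genes were called, 8.31% as higher and 9.46% as lower. The 5 were ZNF627, ZNF738, ZNF100, ZNF254 and ZNF586, and the 7 were ZNF414, ZNF317, ZNF836, ZNF865, ZNF787, ZNF773 and ZNF274. ZNF254 is an example, chosen after its values were seen. Its normalized counts were 563, 651 and 849 with the empty vector and 929, 765 and 985 with overexpression, so that the third empty vector library lay inside the overexpression range. Its log2 fold change was 0.38 with all libraries and 0.56 without replicate 3.

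The members as a set hardly shifted. Over the 231, the median log2 fold change was -0.04, with quartiles of -0.16 and 0.09, and 134 (58.0%) were negative. The median was -0.02 for ZNF genes on other chromosomes, -0.09 for the other protein-coding genes of chromosome 19 and -0.001 for all genes. A change of at most 1.2-fold was fitted for 181 members (78.4%), and the 95% interval lay inside a 2-fold change in either direction for 209 (90.5%). Reads assigned to all members together came to 1817, 1872 and 1775 CPM (counts scaled to the library's assigned reads) with the empty vector and 1780, 1752 and 1676 with overexpression. The groups overlapped, at 1822 ± 48.4 against 1736 ± 53.8 CPM (SD, n = 3).

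The extremes of the fold changes came from genes with few reads, and these were chosen after their values were seen. ZNF729 had 17.2, 19.5 and 33.3 with the empty vector and 8.18, 13.8 and 7.88 with overexpression, or -1.22 ± 0.55 on the log2 scale (adjusted p = 0.249 in DESeq2). It was the only member at or beyond 2-fold among the 231. ZNF223 had 17.2, 19.5 and 11.8 against 34.5, 32.5 and 27.0, at 0.95 ± 0.43 (DESeq2, adjusted p = 0.252). Neither passed under any of the 16 alternatives.

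**Figure D3:**
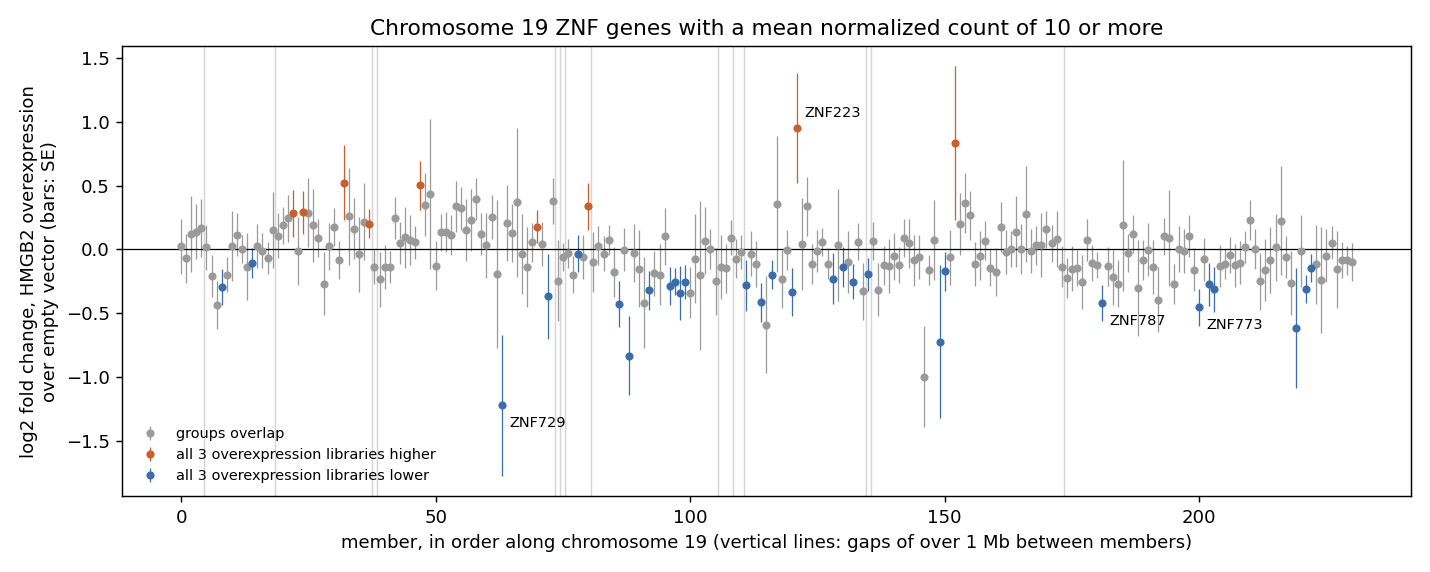
Log2 fold change of HMGB2 overexpression over empty vector (points, with SE) for the 231 members whose mean normalized count was at least 10, in their order along chromosome 19, with vertical lines at gaps of over 1 Mb. Genes whose 3 overexpression libraries lay all above (9, orange) or all below (29, blue) the empty vector libraries are coloured, the others are grey, and ZNF729 at -1.22 and ZNF223 at 0.95 mark the extremes.

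Fold changes in these libraries fell weakly with the GC content of the transcripts. The Spearman correlation was -0.19 over 16587 genes with a mean of at least 10 and -0.24 over the 231 members. Over 10 bins of transcript GC content, the median log2 fold change of all genes fell from 0.08 in the bin of 27.8% to 38.5% GC to -0.10 in that of 61.7% to 76.0%. The members have a median GC content of 42.3%, against 48.4% for all genes. In the poorest bin 44 members had a median of 0.07, beside 0.08 for the other genes. In the next 3 bins, with 46, 50 and 39 members, their medians were -0.03, -0.03 and -0.05, beside 0.05, 0.04 and 0.03. After correction for GC content and length the median over the members was -0.06. The slope of expression on GC differed between libraries within each group: it was 0.098, 0.032 and -0.057 log2 units per 10 points of GC with the empty vector, and -0.020, 0.023 and -0.076 with overexpression. The part of base composition in the members' values beyond that correction was not tested.

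**Figure D4:**
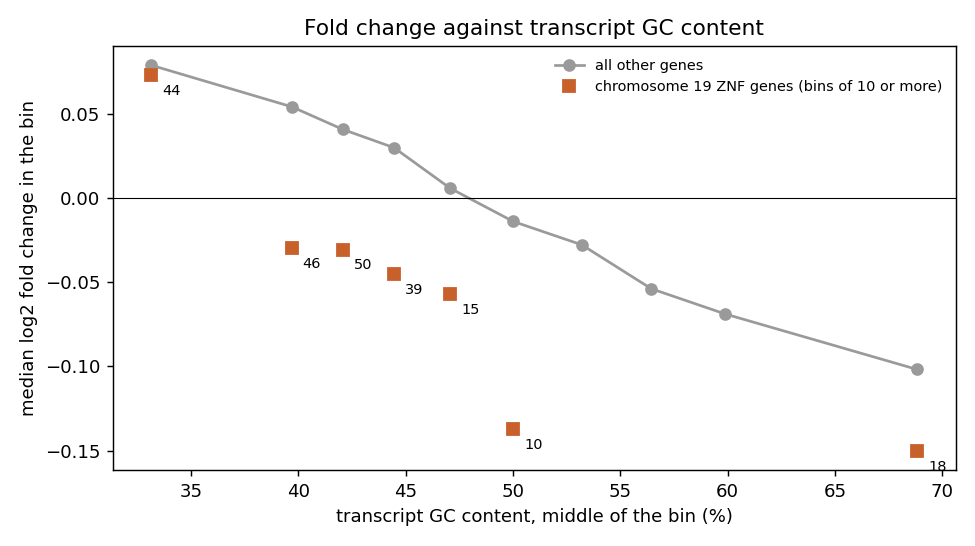
Median log2 fold change (HMGB2 overexpression over empty vector) in 10 bins of transcript GC content, for all other genes (grey line) and for chromosome 19 ZNF genes in bins holding 10 or more of them (orange squares, with their number). The grey line falls from 0.08 to -0.10, and the squares lie under it, nearest to it in the bin of lowest GC.

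The members were then described by their position along the chromosome. Gaps of over 1 Mb split the 249 into 16 groups, 9 of which hold 5 or more genes and 238 of the members. These groups were compared by the median over their members in each library, expressed as log2(normalized count + 1) minus the gene's mean over the 6 libraries. No test was made, since neighbouring genes share libraries and sequence.

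The 25 tested genes from ZNF565 to ZNF573 had the lowest median log2 fold change, -0.19. Of them 20 were negative, and 7 had groups that did not overlap, all of them lower, where 11.4% of all genes at that mean were lower without overlap. Their medians per library were 0.058, 0.107 and 0.066 with the empty vector and -0.043, -0.095 and -0.051 with overexpression. The groups of libraries did not overlap. The GC and length correction moved the median log2 fold change to -0.24, and over the 15 alternatives that refit the values it lay between -0.24 and -0.12. Among these genes, ZNF461 had 325, 327 and 443 against 286, 238 and 289, and ZNF875 had 1056, 1048 and 988 against 888, 844 and 864, neither of which passed (DESeq2 adjusted p = 0.199 and 0.193). Both were chosen after their values were seen.

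The genes from ZNF653 to ZNF791 lay on the other side. The 19 tested had a median log2 fold change of 0.19, and 4 were negative. Their medians per library were -0.167, 0.027 and -0.088 with the empty vector and 0.096, 0.062 and 0.110 with overexpression, again without overlap. With the GC and length correction the median log2 fold change was 0.17. The 4 genes whose groups did not overlap were all higher: ZNF441, ZNF440, ZNF563 and ZNF791, named after their values were seen. They are 21.1% of the 19, beside 11.4% of all genes that were higher without overlap and 22.8% without overlap in either direction. ZNF791, the most abundant of them, had 1064, 1217 and 1068 against 1340, 1247 and 1259, at 0.20 (DESeq2, adjusted p = 0.441).

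The genes from ZNF101 to ZNF254, the cluster nearest to the centromere on the short arm and home of ZNF91, had a median log2 fold change of 0.12 over 35. Their transcripts are the poorest in GC of the larger groups, at a median of 36.8%, and the correction for GC and length brought the median log2 fold change to 0.05. Their medians per library overlapped between groups, at -0.194, 0.001 and 0.063 against 0.077, -0.019 and 0.132. Without empty vector replicate 3 the median log2 fold change was 0.20. ZNF737, chosen after its values were seen, had 102, 127 and 117 against 160, 164 and 165, at 0.50 ± 0.19 (DESeq2, adjusted p = 0.130).

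The largest group ran from ZNF628 to ZNF446 near the end of the long arm and held both called genes. Over 57 members the median log2 fold change was -0.11, and 44 were negative. The medians per library were 0.079, 0.059 and 0.064 with the empty vector and -0.027, -0.040 and -0.095 with overexpression, without overlap, and the corrected median log2 fold change was -0.09. The 24 genes from ZNF575 to ZNF296, which include ZNF224 and its neighbours, had a median log2 fold change of -0.11, or -0.14 when corrected. Of these 24, 7 were lower and 1, ZNF223, was higher in all overexpression libraries, where 11.4% of all genes did so in each direction.

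The 14 genes from ZNF557 to ZNF846 had a median log2 fold change of -0.04, or -0.08 when corrected. Their medians per library did not overlap, at 0.039, 0.048 and 0.038 with the empty vector and -0.041, -0.040 and -0.058 with overexpression, and did not overlap after the correction. The 38 genes from ZNF175 to ZNF331 had a median log2 fold change of -0.005, with 19 negative, and -0.07 when corrected. Their medians per library overlapped before the correction and were lower with overexpression, without overlap, after it. The 5 genes from ZNF302 to ZNF792 had a median of -0.03. For the 5 from ZNF554 to ZNF77 the median was 0.12, and it turned to -0.04 without overexpression replicate 2. Per library, the medians of these 5 overlapped between groups. They were -0.133, 0.060 and 0.025 with the empty vector and -0.066, 0.162 and -0.127 with overexpression.

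**Figure D5:**
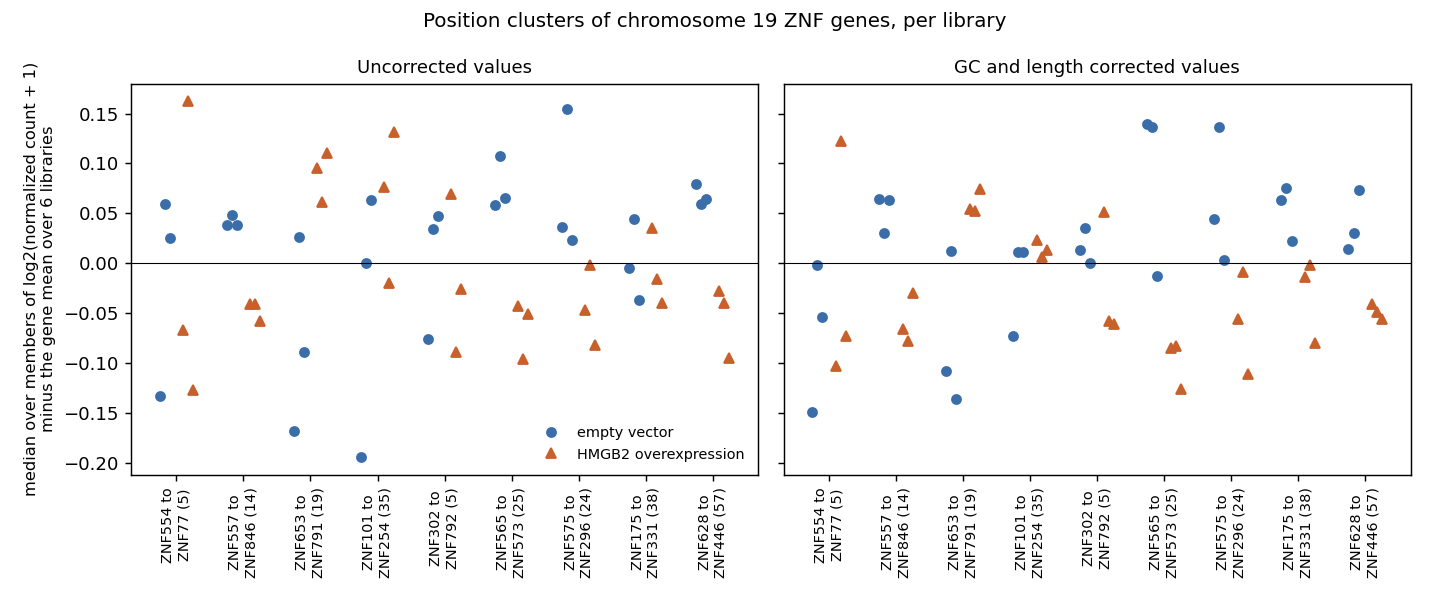
Median over the tested members of each position group (number in brackets) of log2(normalized count + 1) minus the gene's mean over 6 libraries, per library, before (left) and after (right) correction for GC content and length. Blue circles are empty vector and orange triangles overexpression libraries. The genes from ZNF653 to ZNF791 lie higher with overexpression and those from ZNF565 to ZNF573 lower in both panels.

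By domain, 174 members matched a KRAB motif and 75 did not. The median log2 fold change was -0.02 over 157 tested genes with the motif and -0.10 over 74 without it. The transcripts with the motif had a median GC content of 41.4% and those without it 44.2%. The motif missed most genes around ZNF224, so a wider form was added after the data were seen. It matched 191 members, and the medians were -0.03 with and -0.10 without it. By number of fingers the medians were -0.12 for at most 4 (8 genes), -0.05 for 5 to 9 (47 genes), -0.01 for 10 to 14 (98 genes) and -0.05 for 15 or more (78 genes). The 8 genes with the fewest fingers had a median GC content of 63.0%.

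Members with a documented role were listed whatever their values, and none of those with an adjusted p passed. ZNF91 and ZNF93 silence SVA and LINE-1 elements in primates. ZNF91 had 518, 602 and 455 with the empty vector and 598, 519 and 519 with overexpression (log2 fold change 0.05, 95% interval -0.24 to 0.35). ZNF93 had 337, 401 and 435 against 398, 360 and 458 (0.05, interval -0.27 to 0.37). The groups overlapped in both genes.

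ZNF417 and ZNF587, a pair of near copies that repress endogenous retroviruses, had log2 fold changes of 0.02 (interval -0.50 to 0.53) and -0.08 (interval -0.59 to 0.43). ZNF587 kept 32.5% of its strand-assigned reads and shared 25.1% of its words. ZNF304, a KRAB protein with 16 fingers, stood at 0.10 and ZNF331, an imprinted gene, at -0.14. ZNF671, often methylated in tumours, stood at -0.10. ZNF224, which kept 21.0% of its strand-assigned reads, stood at 0.34 (interval -0.12 to 0.79). It stood at 0.15 with the sum of the strand-specific columns, which may include reads of an overlapping gene. ZNF536, a neural repressor without a KRAB motif, stood at -0.24 (interval -0.86 to 0.37).

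ZNF154 and ZNF382, both known as targets of promoter methylation in tumours, were near the floor of detection. ZNF154 had raw counts of 13, 13 and 2 with the empty vector and 6, 0 and 1 with overexpression, or -2.00 ± 1.16 on the log2 scale (adjusted p = 0.454 in DESeq2). ZNF382 had raw counts of 5, 4 and 2 against 2, 0 and 3 and received no adjusted p. With the sum of the strand-specific columns, which can include reads of an overlapping gene, ZNF154 stood at -1.08 (DESeq2, adjusted p = 0.718). Neither difference was detected at these counts.

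The partners through which KRAB proteins silence genes were taken as a list of 35. All 35 had an adjusted p, 2 passed as higher and 0 as lower, with a median log2 fold change of 0.07. This is 5.71% of the list, beside 4.94% of all genes. edgeR called neither of the 2. HDAC1, a histone deacetylase, had normalized counts of 13864, 13024 and 13689 with the empty vector and 15619, 17318 and 17891 with overexpression, at 0.32 ± 0.10 (DESeq2, adjusted p = 0.0258; edgeR, 0.0916). RBBP4, a histone chaperone found with it in the NuRD complex, had 5392, 6021 and 6410 against 7200, 7370 and 7932, at 0.34 ± 0.11 (DESeq2, adjusted p = 0.0432; edgeR, 0.110). In both genes the groups did not overlap. Leaving out any library other than empty vector replicate 3 ended both calls, with adjusted p between 0.116 and 0.375 for HDAC1 and between 0.235 and 0.533 for RBBP4. The GC and length correction ended the call on RBBP4 (0.27, adjusted p = 0.142 in DESeq2), and so did the fit without the independent filter (adjusted p = 0.0751).

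The core of the KRAB pathway did not pass. TRIM28, the corepressor that KRAB domains bind, had a log2 fold change of -0.10 (95% interval -0.30 to 0.11). SETDB1, the methyltransferase, stood at -0.05 (interval -0.23 to 0.13), its cofactor ATF7IP at -0.08 (interval -0.43 to 0.26) and MPHOSPH8, of the HUSH silencing complex, at 0.07 (interval -0.45 to 0.60). A 2-fold change lies outside each of these 4 intervals.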

How the data were processed

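RNA sequencing of 6 A375 libraries was used, 3 with the empty vector and 3 overexpressing HMGB2, grouped by their titles. Per the labels, reads were demultiplexed with bcl2fastq 2.20, checked with FastQC, trimmed with Trimmomatic and aligned with STAR to GRCh38 (hg38). The STAR version and annotation release were not given in the sources used here. The authors deposited raw counts per gene, not normalized, in an unstranded and 2 strand-specific columns. The unstranded column was used. Reads mapping to several places were counted for no gene, and summary lines were left out.

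Groups were compared in DESeq2 1.42.0 under R 4.3.3 (Wald test, defaults, after the study), with an adjusted p under 0.05 over all genes. Fold changes are unshrunken. Low genes were set aside from medians at a mean normalized count under 10. Alternatives were edgeR 4.0.16 (filterByExpr), TMM factors, filters, summed stranded columns, a replicate block, a spline correction for GC and length (5 df), a term for the third replicates, replicates 1 and 2 alone, and leaving out each library. On simulated data, DESeq2 made more false calls than its threshold names, which edgeR did to a lesser extent, so calls near the threshold are given with both.

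Symbols, coordinates, transcript length, GC and motifs came from GENCODE 44 on hg38. Motifs were searched in the translated canonical coding sequences, in place of the protein table the plan named. Members and lists were chosen with earlier results of these data known. Named genes were HMGB2, called members, the 8 highest per kb, 12 with a documented role, the 3 nearest the threshold, 4 partners and any called partner; others are said to be chosen after their values were seen. The wider KRAB motif and the settings for position groups were added after seeing the data.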

Additional observations from a re-analysis of the deposited data

How the results depend on the processing

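The calls on members depended on the setting, and the median over the members stayed negative. Members called as higher and lower were 0 and 2, out of 432 and 498 genes. They were 0 and 0 under edgeR (215 and 255 genes) and without the independent filter (336 and 422 genes). With TMM factors they were 0 and 1 (422 and 497 genes), as for members with under 10% of shared words in the main fit. With the GC and length correction they were 0 and 5 (602 and 772 genes, member median -0.063). They were 4 and 7 with replicates 1 and 2 alone (1203 and 1418 genes), and 3 and 7 with a term for the third replicates (1374 and 1359 genes). Leaving out 1 library at a time gave 0 to 5 members as higher and 0 to 7 as lower, out of 155 to 1334 and 208 to 1520 genes, with 0 and 0 members for each library other than empty vector replicate 3. The member median lay between -0.063 and -0.030 under the alternatives run. The cause of these differences was not tested. Replicate numbers did not pair all libraries: deviations of same-numbered libraries correlated at 0.091, 0.142 and 0.349. The first empty vector library correlated best with overexpression replicate 2. The third replicates correlated best with each other, and each correlated negatively (-0.27 to -0.14) with the other replicates of the other group. Deviations were taken from the group mean and cancel within a group. A positive correlation with a library therefore forces a negative one elsewhere in its group, and the negative values add nothing separate. With a replicate block the members called were 2 and 3 (886 and 940 genes), and with block and GC correction 1 and 6 (1008 and 1101 genes). The sum of the stranded columns added ZNF135 as lower (-0.69, DESeq2 adjusted p = 0.00066), on reads that may include those of an opposite-strand gene. Among the named genes, 403 of the repeated fits kept direction and call, 30 lost the call, 13 gained it and 30 changed sign, all 30 in genes that passed under neither setting. With the GC and length correction these log2 fold changes were -0.034 for ZNF146, -0.026 for ZNF91 and -0.0075 for ZNF417, and with the replicate block added -0.015, -0.020 and -0.010. With replicates 1 and 2 alone they were -0.044 for ZNF146, 0.10 for ZNF561, -0.0032 for ZNF91, 0.028 for ZNF536, 0.071 for ZNF671, -0.065 for ZNF417 and -0.047 for MPHOSPH8. Leaving out 1 library at a time gave -0.10 to 0.15 for ZNF146, -0.099 to 0.12 for ZNF561, -0.047 to 0.13 for ZNF93, -0.037 to 0.16 for ZNF91, -0.60 to 0.019 for ZNF536, -0.19 to 0.047 for ZNF671, -0.23 to 0.11 for ZNF587, -0.16 to 0.11 for ZNF417, -0.25 to 0.081 for ATF7IP and -0.21 to 0.29 for MPHOSPH8. Depth limits the 18 members under a mean of 10.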
